A study of Mus musculus with 2 samples.

Results

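The cells described here were barcodes of mouse uterus with an epithelial keratin profile and under 10000 unique molecular identifiers (UMIs, each counting 1 captured RNA molecule). They were selected on measured values, so the values used for the selection are given as a description. A barcode had to hold at least 500 genes and at most 20% mitochondrial UMIs. Epcam, Cdh1, Krt7, Krt8, Krt18 and Krt19 together had to give at least 0.3% of its UMIs, with at least 3 of these 6 genes detected. Ptprc (a leukocyte gene) and Ifnb1 (interferon beta) had to be at 0, and fewer than 2 of Mki67, Top2a, Cdk1, Cenpf, Ube2c and Hmmr (cycling genes) could be detected. These conditions were met by 803 of 8603 cells, 773 in control and 30 in the conditional knockout (cKO). They are called shallow epithelial cells below, and epithelial cells that met the same conditions with 10000 UMIs or more are called deep.

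The uterine cavity is lined by a single layer of luminal epithelium, which continues into the glands. Under oestrogen this epithelium secretes lactoferrin, lipocalin, complement and small proline-rich proteins into the lumen. In droplet sequencing a low UMI count can come from a small cell, a damaged cell, a nucleus without its cytoplasm or weak capture, and these sources cannot be told apart by the UMI count alone.

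Female mice were 6 months old, and their whole uteri were digested to single cells whose transcripts were counted at the 3′ end. Both groups carried floxed alleles of Prickle1, a planar cell polarity gene. The cKO group also carried iCre driven by Ltf, the lactoferrin gene, which is active in uterine epithelium, so recombination depends on Ltf having been expressed. The uteri of 3 mice were pooled into the 1 library of each group, and no difference has a replicate check or a p-value. The genotype entry of both samples reads C57BL/6J wild-type, so the groups were taken from the titles. An effect of the deletion cannot be told apart from one of the animals, the digestion or the library. The control library held 45035801 UMIs and 3653 cells, and the cKO library held 57145553 UMIs and 4950 cells. The libraries shared 5 cell barcodes, none of which was a shallow epithelial cell in both. Intervals below are exact 95% intervals that cover counting error only.

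Shallow epithelial cells made up 21.2% (19.8 to 22.5) of control cells and 0.606% (0.409 to 0.864) of cKO cells. The log2 ratio of the share of shallow epithelial cells between cKO and control was -5.13 (-5.70 to -4.60). Deep epithelial cells numbered 274 in control and 31 in cKO, so 73.8% (71.1 to 76.5) of the epithelial cells in control were shallow, and 49.2% (36.1 to 62.3) in cKO. Because each held few molecules, they carried 21.9% of the epithelial UMIs in control and 6.45% in cKO. These counts include cells with at least 2 of 9 markers of mesothelium, the outer covering of the uterus. Such cells numbered 10 shallow and 5 deep in cKO, and 5 shallow and 5 deep in control. The highest member below the UMI limit had 9966 UMIs in control and 8494 in cKO, and the first cell above it had 10019 and 12093. At the limit of 0.3% for the 6 epithelial genes, the nearest members and non-members in control held 0.301% and 0.297%. The cell-free RNA of the control library itself held 0.371% of these 6 genes, and 53 control members lay at or below that level. In the cKO library the cell-free level was 0.0520%, and no member lay at or below it. The condition on Ifnb1 removed 24 control barcodes and 0 cKO barcodes.

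The epithelial label held for most control cells, with exceptions among the 13 control cells of cluster 6 and the 26 of cluster 7 described below. Prap1, which encodes a proline-rich secreted protein of uterine epithelium and was not used in the selection, had a UMI in 721 of 773 control members (93.3%). Cells were then thinned to 1000 UMIs, which left out 15 control members and 148 other shallow control cells with fewer. After thinning Prap1 was seen in 88.1% (85.6 to 90.3) of control members and in 19.4% (17.6 to 21.4) of the other shallow control cells, where the median depths before thinning and over all cells were 3213 and 2845 UMIs. Mesothelial markers summed to 16.6 CPM (UMIs of a gene scaled to the same total in every group) in control members, under the 47.3 CPM of the cell-free profile. All 9 smooth muscle markers and 8 of 9 stromal fibroblast markers were detected, with sums of 169 and 120.1 CPM against 2230.4 and 1874 CPM in the cell-free profile.

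For the cKO cells the label held only in part. Only 8 of 30 (26.7%, 12.3 to 45.9) had a Prap1 UMI, and 17 of 30 had a UMI of Epcam or Cdh1, the epithelial adhesion genes, against 681 of 773 in control. At least 2 of 9 mesothelial markers were found in 10 of 30 cKO members and in 5 of 773 control members. Mesothelium, the covering of the outer uterine surface, also makes keratins 8, 18 and 19. The mesothelial list summed to 1828 CPM in cKO members against 103 CPM in cKO cell-free RNA. The stromal fibroblast list summed to 5565 CPM, against 4714 CPM in the cell-free profile. All 9 macrophage or monocyte markers and all 10 lymphoid markers were at 0 in cKO members. The 30 cKO barcodes are therefore described by the selection rule, and for some genes the difference from control is also given without the mesothelial-marked cells. Leaving out those 10 cells does not remove all 16 cKO cells of cluster 6, described below.

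Mitochondrially encoded genes, 52930 CPM in sum, and ribosomal protein genes were left out of the ranking by abundance. Among the other transcripts of control shallow epithelial cells, the most abundant included nuclear RNA and secretory and cytoskeletal messages. Malat1, a long noncoding RNA kept in the nucleus, was at 94673 CPM, and Prap1 at 18730.4 CPM. Actb and Actg1, the cytoplasmic actins, followed at 5014 and 4203 CPM. Lars2, the mitochondrial leucyl-tRNA synthetase, was at 3427 CPM, and Neat1, the RNA scaffold of nuclear paraspeckles, at 2911 CPM. Sprr2f, a small proline-rich protein gene induced by oestrogen, was at 2714 CPM. Xist, the noncoding RNA of the inactive X chromosome, was at 2424 CPM, and Tcim, a transcriptional and immune response regulator, at 1837 CPM. Compared with deep control cells, Malat1, Neat1, Xist, Lars2 and Tcim were at higher CPM in shallow ones, whereas the actins and Sprr2f were at lower CPM. Among the oestrogen-induced secretory genes, C3 (complement) was at 1496 CPM, Lcn2 (lipocalin 2) at 1669 CPM and Ltf at 977 CPM. Ltf had a UMI in 554 of 773 control members (71.7%) and in 160 of 1799 other shallow control cells (8.89%), and its cell-free level was 612 CPM. After thinning the shares were 45.5% and 5.21%.

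The 803 cells fell into 8 clusters, which are described by their leading genes and were not tested. Cluster 2 held 123 control and 11 cKO cells and was led by Meis1, Ifitm1 and Tmem176a. It had the highest Prap1 level, 36761 CPM, and the highest level of Ovgp1, which encodes oviductal glycoprotein 1 (239 CPM). Its median ribosomal protein share was 15.1% and its median Malat1 share 4.38%, against 13.1% and 3.89% in deep control cells. Other levels lay further apart, with Actb at 4813 CPM and Lars2 at 2939 CPM against 14168 and 405 CPM in deep control cells. Cluster 0, with 212 control cells and 1 cKO cell, was led by Slco5a1, Tet2 and Pde4dip. Slco5a1 was 2.47-fold above the other members there, and the median Malat1 share was 11.1%.

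Cluster 1, with 147 control cells and 1 cKO cell, was led by Itprip and Ankrd37 and included Pfkp, Bnip3, Slc16a3 and Pgk1, genes of glycolysis and the hypoxia response. Its endoplasmic reticulum (ER) stress list summed to 10383.5 CPM, the highest of the 8 clusters. Cluster 3, with 114 control cells and 1 cKO cell, was led by Sprr2d at 565.5 CPM against 36.3 CPM in the rest, and by Slc26a4, an anion exchanger. The luminal epithelial marker Wnt7a was at least 2-fold above the rest, and the interferon-response list summed to 1442 CPM. Cluster 4 held 71 control cells and was led by Kdm4b (a histone demethylase), Cebpa and Gys1 (glycogen synthase), with Prap1 at 3171 CPM.

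Cluster 5 held 67 control cells and no cKO cell and was led by Ifit2, Cd274, Cmpk2 and Ccl5. Ifit2 was at 286 CPM there and 4.78 CPM in the remaining cells. The interferon-response list summed to 16411 CPM in cluster 5, and to between 1195 and 4241 CPM in the other clusters. Cluster 7, 26 control cells, carried all 9 smooth muscle markers at 2-fold or more beside its epithelial genes, with Acta2 at 548 CPM against 16.2 CPM in the rest. Cluster 6 held 13 control and 16 cKO cells, had 8 of 9 mesothelial and 7 of 9 stromal markers at 2-fold or more, and had a median Malat1 share of 0 and a median mitochondrial share of 0.164%. Of the 30 cKO members, 16 lay in cluster 6, which is led by Bicc1, Stk26 and Igfbp6, and 11 lay in cluster 2. Of the members, 2 control cells and no cKO cell exceeded the doublet score limit of 0.25.

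**Figure D1:**
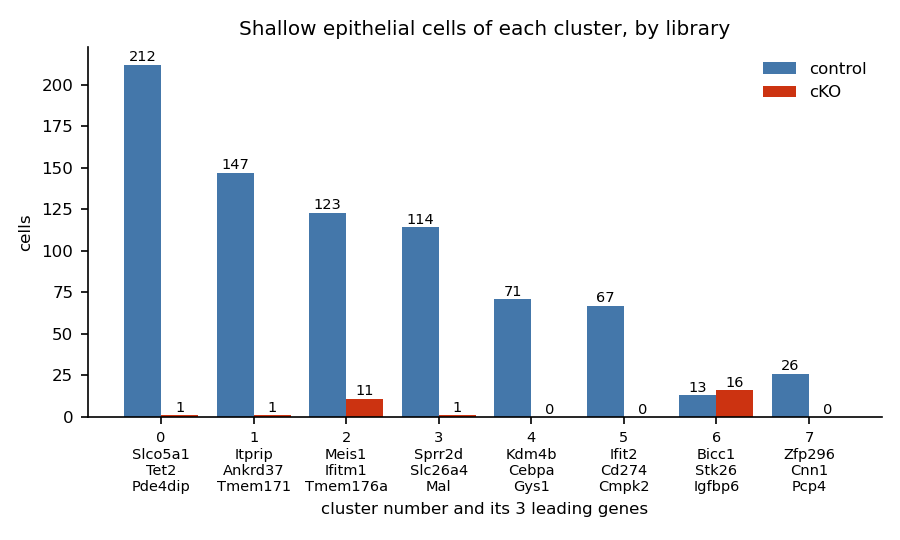
Number of shallow epithelial cells in each of 8 clusters, control (blue) and cKO (red); the axis labels give the cluster number and 3 leading genes. The cKO cells lie almost entirely in clusters 2 (11 cells) and 6 (16 cells), whereas control cells spread over all 8.

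Within the control members, Malat1, Lars2, Actb and the ER stress list differed less among the 3 UMI bands below the limit than they did from deep cells. Malat1 was at 83941, 98521 and 92462 CPM in cells with under 2000 UMIs, from 2000 to under 5000 and from 5000 to under 10000, and at 38395 CPM in deep cells. The ER stress list summed to 6049.9, 6316 and 6701 CPM in the 3 shallow bands and to 13260.3 CPM in deep cells. Actb stood at 5239, 4473 and 5574 CPM in these bands and at 14168 CPM in deep cells. Lars2 was between 2753 and 4093 CPM in the shallow bands and at 405 CPM in deep cells. Prap1 was at 14101, 17412 and 21094 CPM in the shallow bands and at 13666 CPM in deep cells. Ltf was at 853, 887 and 1101 CPM, and at 1663 CPM in deep cells. The bands held 166, 426 and 181 cells, and the deep cells had a median of 31134.5 UMIs.

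**Figure D2:**
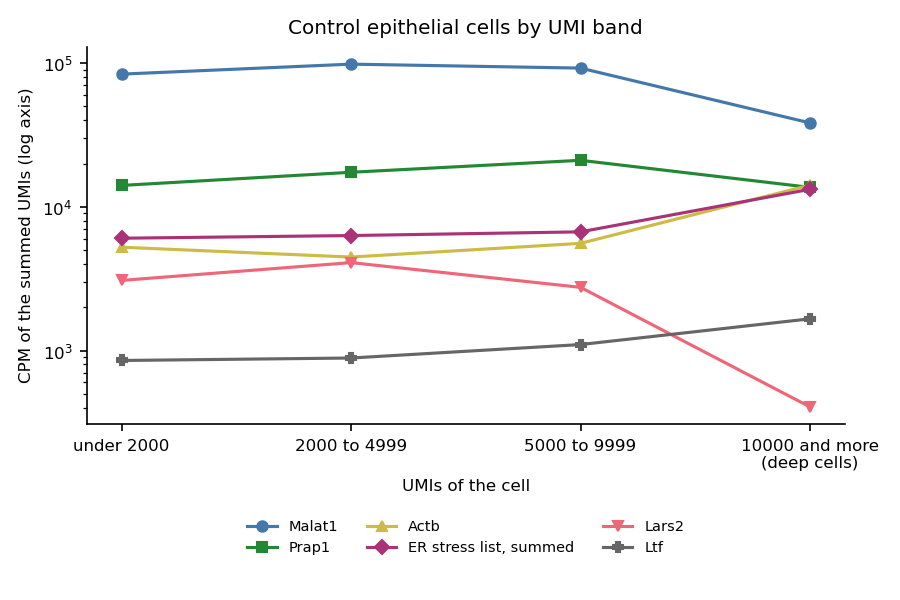
CPM of 5 genes and the summed endoplasmic reticulum (ER) stress list (log axis) in control epithelial cells, by UMI band; lines join bands of 1 library and carry no error bars. Malat1 and Lars2 are lower and Actb, Ltf and the ER stress list higher in the cells with 10000 or more UMIs than in any of the 3 shallow bands.

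In control, shallow epithelial cells held relatively less RNA for protein folding in the ER, ribosomal proteins and the nuclear-encoded respiratory chain than deep ones. They held relatively more histone RNA and Malat1. Of 9928 genes with enough counts (a mean CPM equal to 10 UMIs in the smaller group), 1312 were at least 2-fold higher in shallow cells, which is 13.2%. Another 827, or 8.33%, were at least 2-fold lower. The median log2 ratio over all 9928 genes was 0.03. With edgeR's TMM factors every log2 ratio moved by -0.21, and the counts became 936 higher and 1410 lower. The same zero limits on Ptprc, Ifnb1 and cycling genes are stricter in a deep cell, which holds more molecules.

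Of 19 ER stress genes 0 were at least 2-fold higher, 11 were lower, and the median log2 ratio was -1.23. In the other cells of the control library these genes had a median of -0.08 between shallow and deep cells. Hspa5, the ER chaperone BiP, was at 1709.7 CPM in shallow and 4876 CPM in deep epithelial cells, a log2 ratio of -1.51 (-1.55 to -1.47). Hsp90b1, the ER form of Hsp90, was at 781 and 1829 CPM, and Manf, a secreted factor of the stressed ER, at 180.2 and 767 CPM. Atf4, a transcription factor of the stress response, was at 884 and 833 CPM, which did not differ by 2-fold and is turned to the other direction by TMM factors. Of 29 genes of the translocon and signal peptidase machinery, a family chosen by name after its values were seen, 12 were lower and 0 higher, with a median of -0.87. Spcs2, a signal peptidase subunit, was at 53.5 CPM in shallow and 227 CPM in deep cells, and Sar1b, a GTPase of vesicle export from the ER, at 8.97 and 53.1 CPM.

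Ribosomal protein genes and nuclear-encoded respiratory chain genes were also lower, again families taken by name after the data were seen. Of 80 ribosomal protein genes 27 were at least 2-fold lower and 0 higher, with a median of -0.85. Of 79 respiratory chain genes 25 were lower and 0 higher, with a median of -0.80. The corresponding medians in the other control cells were -0.22 and -0.01. The 13 mitochondrially encoded genes had a median of 0.17, which TMM factors turn to -0.04, with 1 higher and 0 lower. Of 20 genes of glutathione and detoxification 8 were lower and 0 higher (median -0.62), among them Nqo1, a quinone reductase, at 5.52 and 33.4 CPM. Of 20 glycolysis and hypoxia genes 6 were lower and 0 higher, including Gapdh at 555 and 1187 CPM.

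The secretory products themselves were mixed. Of 24 oestrogen-induced secretory genes 2 were at least 2-fold higher and 6 lower, with a median of -0.63. Lcn2 was at 1669 CPM in shallow and 4556 CPM in deep cells, Clca1 (a secreted chloride channel regulator) at 347 and 890.2 CPM, and Ltf at 977 and 1663 CPM. Prap1 was higher in shallow cells, at 18730.4 and 13666 CPM, a log2 ratio of 0.45 (0.44 to 0.47). Plac8 was at 265 CPM in shallow and 1406 CPM in deep cells, and S100g, a calcium-binding protein of uterine epithelium, at 55.9 and 279 CPM. Of 29 genes of epithelial junctions and polarity 4 were lower and 0 higher (median -0.40), and Cldn4, a tight junction claudin, was at 1798 and 1614 CPM, again turned by TMM factors.

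Among the genes higher in shallow cells, Malat1 had a log2 ratio of 1.30 (1.29 to 1.31) and was the only 1 of 4 tested nuclear-retained RNAs past 2-fold. The median of these 4 was 0.58, and Neat1 had 0.66 (0.62 to 0.70). In the other control cells Malat1 had a ratio of 0.25 and Neat1 of -0.34. Lars2 had a ratio of 3.08 (3.03 to 3.13) in epithelial cells and 1.19 in the other cells. Its cell-free level in control was 2438 CPM, and whether free RNA contributes to its level in shallow cells was not tested. Rmrp, the RNA of the RNase MRP enzyme, had 3.08 (2.87 to 3.30) in epithelial cells and 3.78 in the other cells. Of 39 histone genes, again taken by name, 35 were at least 2-fold higher and 0 lower, with a median of 2.28, and their summed level was 1879.5 against 564 CPM. In the other control cells the median was 1.53. Hist1h1a, a linker histone, was at 48.3 CPM in shallow and 5.13 CPM in deep cells. Histone genes are near-identical copies, so the level of any 1 of them is uncertain. Olfm4, a secreted olfactomedin, had the largest ratio, but its 30 UMIs came from 7 cells.

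Signalling, matrix and antigen presentation genes were also compared. Of 15 Wnt, Notch and hedgehog genes 4 were higher and 0 lower (median 0.46), among them Hes1, a Notch target, at 434 and 205 CPM. Of 20 collagen and laminin genes 8 were higher and 0 lower (median 0.60). Of 16 MHC class I genes 3 were higher and 1 lower, near the 13.2% and 8.33% of all genes, with Nlrc5, the activator of this pathway, at 79.03 and 20.3 CPM. The median over MHC class I genes was 0.40 in epithelial cells and 0.63 in the other cells. Genes were also split by length. Of the genes in the longest of 4 equal classes by merged exons 2.54% were at least 2-fold lower, against 15.8% in the shortest class. The corresponding shares higher were 11.9% and 15.1%.

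**Figure D3:**
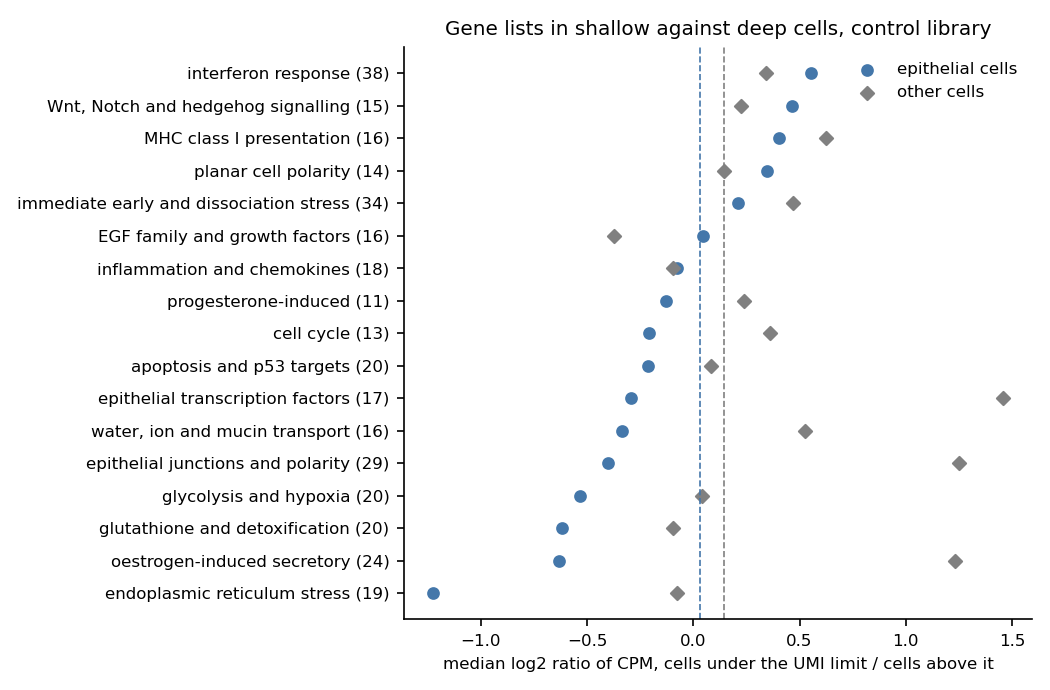
Median log2 ratio of CPM in shallow against deep cells for each gene list with 10 or more genes tested (number in parentheses), control library, for epithelial cells (blue circles) and the other cells (grey diamonds); dashed lines mark the medians over all genes tested. The ER stress list has the lowest epithelial median (-1.23) and lies at -0.08 in the other cells.

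The profile of control shallow cells was also set against that of barcodes with at most 100 UMIs, taken as cell-free RNA. Epithelial junction genes had a median log2 ratio of 1.36 over the cell-free profile and nuclear-retained RNAs one of 1.29. The ER stress list had a median of 0.46 and glutathione genes one of -1.14. Cldn4 was at 1798 CPM in members and 552 CPM in cell-free RNA, and Malat1 at 94673 and 27654 CPM. Prap1 was at 18730.4 CPM in members and 10057 CPM in cell-free RNA, and the share of the members' Prap1 that is free RNA was not tested.

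In the cKO members oestrogen-induced secretory genes, interferon-response genes and nuclear-retained RNAs were lower than in control members, and glutathione genes were higher. Of 6 collagen and laminin genes 3 were at least 2-fold higher and 3 lower. Of 1593 genes tested, 500 (31.4%) were at least 2-fold higher in cKO and 328 (20.6%) at least 2-fold lower, with a median log2 ratio of 0.39. TMM factors moved every ratio by -0.75 and this median to -0.37, which left 254 genes higher and 551 lower, and DESeq2 size factors moved it by -0.72. Leaving out members with 2 or more mesothelial markers left 20 cKO and 768 control cells, with 204 genes higher and 126 lower of 706 tested. Within cluster 2, 65 genes were higher and 54 lower of 413 tested. In all these counts, genes with few UMIs in 1 library passed the filter through the other alone, which fixed their direction.

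The 10 genes that the naming rule picked as higher in cKO were Rarres2, Igfbp6, Gas1, Upk3b, Fmo2, Fgf1, Dcn, Igf1, Aebp1 and Bicc1. Upk3b, a uroplakin of mesothelium, was at 566 CPM (427 to 734) in cKO and 3.45 CPM (1.66 to 6.35) in control. Dcn, the matrix proteoglycan decorin, was at 4353 and 72.8 CPM, and 1472 CPM in cKO cell-free RNA. Rarres2, which encodes chemerin, was at 1071 and 3.80 CPM. Genes this low in control, such as Rarres2 and Upk3b, passed the count filter through cKO alone, so their direction was fixed by the filter. Without the mesothelial-marked cells Rarres2 kept 5 UMIs in cKO and Upk3b 3, and in cluster 2 they had 0 and 1. Upk3b is itself 1 of the markers used to leave cells out. Dcn was at 445 CPM in cKO and 29.2 CPM in control without those cells, and Fgf1, a fibroblast growth factor, at 296 and 3.82 CPM.

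Epithelial secretory genes were lower in the cKO members, where the list of 30 genes summed to 3454 CPM against 10745 CPM in control. Of these, 14 had enough counts to be compared. Those with 0 or 1 UMI in cKO, such as Ltf, Clca1 and Muc1, passed the count filter through control alone, so their direction was fixed by the filter. With that limit, 11 of the 14 were at least 2-fold lower and 1 higher. Ltf had 2830 UMIs in control (977 CPM, 941 to 1013) and 1 UMI in cKO (10.1 CPM, 0.256 to 56.3). The control level was 96.7-fold (17.3 to 3821) higher. Lcn2 was at 1669 CPM in control and 242 CPM in cKO, and Sprr2f at 2714 and 242 CPM. Clca1 had 1006 UMIs in control and 0 in cKO, at least 11.5-fold higher in control when a count of 0 is taken to allow 3 UMIs in the group. Prap1 was at 18730.4 and 11877 CPM, a log2 ratio of -0.66 (-0.74 to -0.57) that became 0.21 (0.13 to 0.29) without the mesothelial-marked cells, and C3 at 1496 and 1838 CPM, a difference that TMM factors turn to the other direction. Slpi, a secreted protease inhibitor, was higher in cKO, at 202 against 13.8 CPM, and passed the filter through cKO alone.

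The same genes were compared again within cluster 2. Cells were placed in this cluster by the similarity of their counts, which can itself make differences within it small. Whether its 11 cKO cells carry the epithelial profile was not tested apart from the control cells. Over all clusters only 8 cKO members had a Prap1 UMI, so some of these 11 lack it. Ltf had 0 UMIs in 11 cKO cells and 870 UMIs in 123 control cells, a log2 ratio of at most -4.27 when 3 UMIs are allowed. Lcn2 had a log2 ratio of -2.98 (-3.83 to -2.32) and Sprr2f of -4.00 (-5.13 to -3.19). Prap1 had -0.35 (-0.44 to -0.26) there, and Cldn4 -0.09 (-0.75 to 0.45). Over all members Cldn4 had -2.55 (-3.14 to -2.05), and the junction list had 0 of 13 genes higher and 8 lower with a median of -1.11, which became -0.04 in cluster 2. In deep epithelial cells of these libraries Ltf was at 1663 CPM in control and 174 CPM in cKO, Clca1 at 890.2 and 3.48 CPM, Lcn2 at 4556 and 2489 CPM, and Prap1 at 13666 and 19801 CPM.

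**Figure D4:**
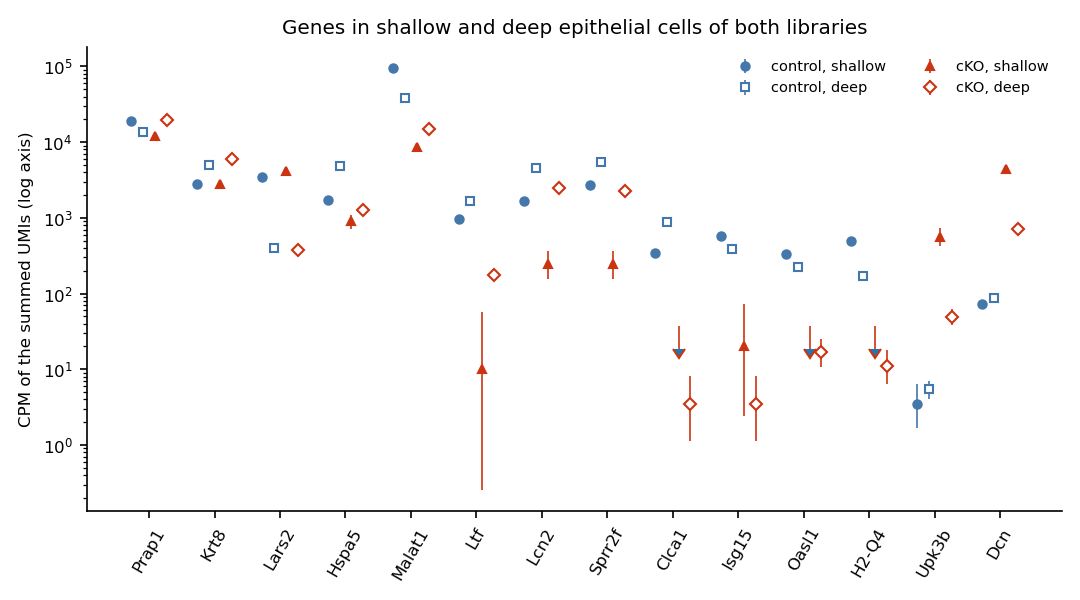
CPM of 14 genes (log axis) in shallow (filled) and deep (open) epithelial cells of control (blue) and cKO (red), with exact 95% Poisson intervals; arrows mark the upper limit where no UMI was counted. Clca1, Oasl1 and H2-Q4 had 0 UMIs in the 30 cKO shallow cells, and Upk3b and Dcn are highest in that group.

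Most cKO members held little or no Malat1. Summed over members it was at 94673 CPM in control and 8564 CPM in cKO, or -3.47 (-3.57 to -3.37) as a log2 ratio. Per cell, Malat1 gave between 0 and 33.8% of UMIs in control, with a median of 9.18%, and between 0 and 5.61% in cKO, with a median of 0. It lay under 0.2% in 31 of 773 control members (4.01%) and in 22 of 30 cKO members (73.3%), 19 of which had no Malat1 UMI. The 8 cKO members with 5000 UMIs or more had a median share of 0.982%, and the median was 0 in those with fewer. Without the mesothelial-marked cells Malat1 was at 95159 CPM in control and 11854 CPM in cKO. Among other shallow cells the share under 0.2% was 29.8% in control and 30.4% in cKO, and among deep epithelial cells 0.730% and 3.23%. All 4 nuclear-retained RNAs tested were at least 2-fold lower in cKO members, with Neat1 at 2911 and 323 CPM. The cKO members also had a median mitochondrial share of 0.264% against 3.24% in control, and a median ribosomal protein share of 15.1% against 6.999%. Of 79 ribosomal protein genes 24 were higher, near the 31.4% of all genes, and 1 lower, with a median of 0.71 that TMM factors turn to -0.05.

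**Figure D5:**
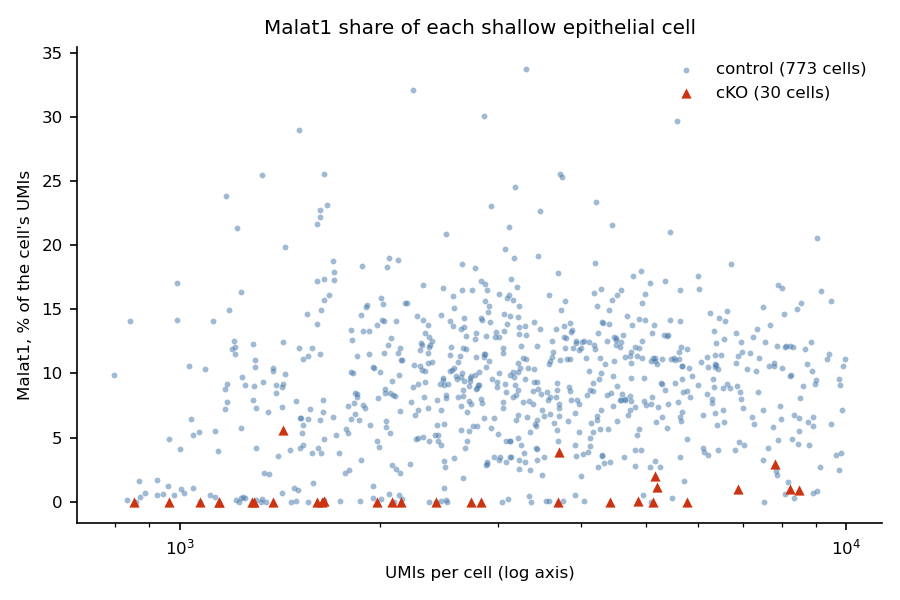
Malat1 share of each shallow epithelial cell (% of its UMIs) against its UMIs (log axis), control (blue circles, 773 cells) and cKO (red triangles, 30 cells). Of the 30 cKO cells 22 lie under 0.2%, and the 8 others have a median of 6034.5 UMIs, whereas the control cells have a median share of 9.18%.

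Genes of glutathione metabolism were higher in cKO members. Of 13 glutathione and detoxification genes 11 were higher and 1 lower, with a median of 1.89. Genes with a low level in control, such as Gpx3, passed the count filter through cKO alone, so their direction was fixed by the filter. Hmox1, haem oxygenase, was at 3676 CPM in cKO and 226 CPM in control, at 2167 and 208 CPM without the mesothelial-marked cells, and at 1526 and 3485 CPM in the other shallow cells. Gpx3, a secreted glutathione peroxidase, was at 485 and 18.3 CPM. The list's median was 0.89 in cluster 2, and over the 8 cKO members with at least 0.2% Malat1 it was -0.0045 from 3 tested genes. Of 31 immediate early and dissociation stress genes 11 were higher and 6 lower, near the 31.4% and 20.6% of all genes, with a median of 0.35 that TMM factors turn to -0.41. Hspa1a, an inducible Hsp70, was at 1858 CPM in cKO and 269 CPM in control, whereas Jun was at 545 and 1441 CPM. Of 14 ER stress genes 1 was higher and 3 lower, with a median of -0.10, and Herpud1, an ER degradation factor, was at 10.1 and 324 CPM.

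Interferon-response genes were lower in the cKO members, and their summed level was also lower in the other cells of that library. Only 8 of 40 listed genes had enough counts to be compared. Those with 0 to 2 UMIs in cKO, such as Isg15, Oasl1 and Rsad2, passed through their control level alone and so had to be lower. With that limit, 7 of the 8 were at least 2-fold lower and 0 higher. The sum over all listed genes, which needs no filter, is given below. Isg15, a ubiquitin-like modifier, had 1653 UMIs in control (570.5 CPM) and 2 in cKO (20.2 CPM), and the control level was 28.2-fold (7.81 to 233) higher. Both cKO UMIs came from cells that were not mesothelial-marked. Oasl1, a 2′-5′-oligoadenylate synthetase-like gene, had 953 UMIs in control and 0 in cKO, at least 10.9-fold higher in control. Rsad2, which encodes viperin, was at 271 and 20.2 CPM. Trim25, a ubiquitin ligase of RNA sensing that is not among the listed genes, was at 717 and 30.3 CPM. H2-Q4, an MHC class I gene with close paralogs and so uncertain, had 1432 UMIs in control and 0 in cKO. The list summed to 4476 CPM in control members and 626 CPM in cKO members. The sums were 5042 and 939 CPM in the other shallow cells, and 3318 and 390.3 CPM in deep epithelial cells. The selection had required Ifnb1 at 0 in both libraries.

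The promoters of these genes were searched for GAAA, any 2 bases and GAAA, the core of the interferon-stimulated response element, on both strands, where overlapping matches are counted separately. The window ran from 250 bases before to 50 bases after each start in RefSeq on GRCm38.p6. Of 40 listed genes 29 were found in that table, and 18 of them (62.1%) held a match in at least 1 promoter. Of all 27025 genes listed by RefSeq there, 3.99% held a match. Among 24 matched oestrogen-induced secretory genes 1 held it (4.17%). Isg15 and Rsad2 are shown because their values are given above, and Ifit3 because it is among the 6 leading genes of cluster 5. Each line gives the 250 bases before the start, 5′ to 3′ on the gene's strand, with matches of either strand in capitals. They lie at chr4:156200819-156201068 (minus strand), chr12:26456453-26456702 (minus strand) and chr19:34583279-34583528 (plus strand) in the order Isg15, Rsad2, Ifit3.
Isg15: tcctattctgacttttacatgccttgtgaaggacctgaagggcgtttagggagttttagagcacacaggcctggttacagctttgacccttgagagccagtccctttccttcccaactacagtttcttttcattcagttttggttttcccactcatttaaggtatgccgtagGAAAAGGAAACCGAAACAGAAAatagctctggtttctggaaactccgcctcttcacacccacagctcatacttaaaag
Rsad2: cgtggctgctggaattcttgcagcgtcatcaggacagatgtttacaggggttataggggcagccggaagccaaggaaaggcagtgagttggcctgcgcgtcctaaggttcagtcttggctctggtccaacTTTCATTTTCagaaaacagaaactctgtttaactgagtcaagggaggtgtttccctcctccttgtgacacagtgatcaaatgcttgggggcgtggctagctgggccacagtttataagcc
Ifit3: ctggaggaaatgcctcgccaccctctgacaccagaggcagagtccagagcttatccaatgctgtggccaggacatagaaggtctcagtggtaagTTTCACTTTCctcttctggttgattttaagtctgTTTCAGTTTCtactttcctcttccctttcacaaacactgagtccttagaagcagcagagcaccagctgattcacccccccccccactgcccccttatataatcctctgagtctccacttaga
Isg15 had 3 overlapping matches that began 78, 72 and 66 bases before its start, Rsad2 had 1 at 120 bases, and Ifit3 had 2 at 156 and 122 bases. Oasl1, Trim25 (not a listed gene), and Ifit2 and Cmpk2 of cluster 5 had none in this window. Ifit3 was at 133 CPM in control members, 10.1 CPM (1 UMI) in cKO members and 73.4 CPM in deep control cells.

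Within cKO, shallow and deep epithelial cells were compared in the same way. Of 1684 genes tested 207 (12.3%) were at least 2-fold higher in the shallow cells and 232 (13.8%) lower, with a median of 0.04. Lars2 was at 4131 CPM in shallow and 376 CPM in deep cKO cells, and the control values were 3427 and 405 CPM. The ER stress list had 0 genes higher and 4 lower of 13, with a median of -0.49. Of 13 junction genes 8 were lower and 0 higher, and control also had more lower than higher. Malat1 was lower in the shallow cKO cells, at 8564 against 14980.3 CPM, and higher in the shallow control cells. Upk3b was at 566 and 49.4 CPM, and 10 of 30 shallow and 5 of 31 deep cKO cells had at least 2 mesothelial markers. Whether the libraries differ in the effect of depth was not tested.

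The targeted gene could not be checked in these cells. Prickle1 had 6 UMIs in 773 control members (2.07 CPM, 0.760 to 4.51) and 4 UMIs in 30 cKO members (40.4 CPM, 11.01 to 103), and its cell-free level was 1.55 and 5.69 CPM. A 3′ count also does not tell whether an internal exon is missing. None of 19 planar cell polarity genes passed the count filter between cKO and control members, and their summed level was 475 CPM in cKO and 388 CPM in control. Between shallow and deep control cells 14 were tested, of which 2 were higher and 1 lower, near the 13.2% and 8.33% of all genes. Dvl1, which relays Wnt signals, was at 125 CPM in shallow and 49.6 CPM in deep cells, Scrib, a polarity scaffold, at 89.4 and 34.7 CPM, and Wnt5a, a ligand of the pathway, at 6.90 and 14.9 CPM.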

How the data were processed

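The deposited files held raw UMI counts per gene and barcode of 2 libraries, unfiltered. Per the file headers the counts came from Cell Ranger 4, while the submitters' processing notes name Cell Ranger 6.1.1 and mm10. All other steps were made here from those counts. Cells were barcodes with at least 500 genes and at most 20% mitochondrial UMIs, and barcodes with at most 100 UMIs gave the cell-free profile. The members and gene lists were chosen with earlier results of these data known. Counts were summed over cells per library and given as CPM with exact Poisson intervals, and ratios with exact conditional binomial intervals. With 1 library per group nothing was tested. A gene was compared where its mean CPM equalled at least 10 UMIs in the smaller group, and counted as higher or lower past 2-fold. Log2 ratios used a pseudocount of 0.5 UMI. Cells were clustered on 1500 variable genes, 20 principal components and 15 neighbours (Leiden resolution 0.6). Doublets were scored with a Scrublet-type method and kept.

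Genes were named by rank: the 15 most abundant, the 10 highest and 10 lowest ratios by the interval limit nearer to 1 (UMIs in at least 5 cells, no cell over 50%, not under the cell-free level), the 4 most counted members of each list and the leading genes of each cluster. The ranks skip genes encoded by mitochondria, genes of ribosomal proteins, haemoglobins or immunoglobulins, and predicted genes without a name. Other genes named were chosen after their values were seen. Alternatives changed the cell limits, doublets, scaling (TMM, DESeq2 size factors), count filter, thinning to 1000 UMIs, cell-free subtraction and, added after seeing the data, the subsets of members. Gene coordinates of 32094 of 32245 gene identifiers (99.5%) matched GENCODE M21. The scripts ran on Python 3.11.15, NumPy 2.4.6, SciPy 1.17.1, pandas 2.3.3, scikit-learn 1.9.0, igraph 0.11.9, leidenalg 0.10.2, R 4.3.3, edgeR 4.0.16 and DESeq2 1.42.0, and the comparison script was tested on simulated data.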

Additional observations from a re-analysis of the deposited data

How the results depend on the processing

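The log2 ratio of the cKO to the control share of shallow epithelial cells was -5.13, and became -5.83 with a six-gene share of at least 0.6% and -5.76 where an Epcam or Cdh1 UMI was needed. It was not recomputed for the subsets by Malat1 (8 cKO and 742 control cells) or cluster 2 (11 and 123 cells), in which the balance of the libraries differs. The 500 genes higher and 328 lower in cKO members became 186 and 107 with the 0.6% share, 279 and 141 with a limit of 5000 UMIs, and 244 and 161 without cells holding 0.5% or more UMIs of other cell types' markers. With fewer than 2 mesothelial markers they became 204 and 126, with an Epcam or Cdh1 UMI 293 and 189, with at least 0.2% Malat1 135 and 132, and in cluster 2 alone 65 and 54. They became 144 and 67 when cells were thinned to 1000 UMIs, 254 and 551 with TMM factors, 260 and 539 with DESeq2 size factors, 1090 and 674 with a filter of 5 expected UMIs, and 211 and 136 with one of 20. Fewer genes pass the filter with fewer cells or UMIs, with 413 genes compared in cluster 2 and 368 after thinning against 1593. Between shallow and deep control cells, the 1312 higher genes became 293 after thinning, and the 827 lower became 484 after thinning, 1410 with TMM factors and 1496 with DESeq2 size factors. The scaling turns further signs near 0, as stated in the report for some genes and lists. Other alternatives also turned signs, among them those of the glutathione list between cKO and control members (-0.0045 with at least 0.2% Malat1) and of Nudt2 between shallow and deep control cells (0.12 after thinning), and the cause was not tested. Cell-free subtraction limited by single markers removed 0%, and limited by summed markers 6.41% of the control shallow profile. No paired analysis was possible because each group is 1 library.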

Other observations

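Of 4 cell-cycle genes with enough counts 3 were at least 2-fold higher in cKO than in control members (Pcna, Tubb5 and H2afz), against 31.4% of all genes compared. The list's median of 1.86 was 1.11 with TMM factors, and the list summed to 2272 and 762 CPM. The selection limited cycling genes in both. None of the 9 stratified squamous markers had enough counts to be compared, and their sum of 283 CPM in cKO members came from 28 UMIs. Vegfa, a vascular growth factor, was at 90.9 CPM in cKO members and 1257 CPM in control members, and Muc1, a surface mucin, had 1 UMI in cKO and 618 UMIs in control.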
